A study of Mus musculus with 4 samples.

Results

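The 10 genes described here belong to the piRNA pathway of the mouse: Piwil1, Piwil2, Piwil4, Tdrd1, Tdrd5, Tdrd9, Mael, Mov10l1, Asz1 and Pld6. They were matched by name on the arrays, with older aliases allowed, and the list was chosen with earlier results of these data known. They are 10 of 18454 genes tested, and 13 probes carry their names, with 2 probes each for Tdrd1, Tdrd5 and Mov10l1. All 13 probes were well above background in both channels on all 4 arrays, so each member passed the filter on dim probes.

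The samples were cultured spermatogonial stem cells, which renew themselves and sustain spermatogenesis, from C57/BL6 x DBA/2 F1 mice at day 5. The treated cells (-F+S) had been passaged into medium from which FGF2 was withdrawn and to which SU5402, an inhibitor of FGF receptors, was added, and they were harvested after 12 h. The control cells (normal culture) stayed in the maintenance medium, which is serum-free and contains GDNF at 40 ng/ml and FGF2 at 5 ng/ml. The 4 two-colour Agilent arrays each held 1 treated sample in Cy3 (green) and 1 control sample in Cy5 (red), and the design text calls the 4 samples of each group biological replicates. The labels give no time for the control cells. The labels mention neither feeder cells nor the purity of the cultures. Dyes were not swapped, so an effect of the dye on a given probe and the effect of the treatment cannot be told apart. The passage into new medium, the withdrawal of FGF2 and SU5402 came together in the treated cells, so their effects cannot be told apart either.

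PIWI proteins are the germline branch of the Argonaute family and bind piRNAs, small RNAs that direct them to transposon transcripts and, in the nucleus, to transposon loci. Long precursor transcripts are cut and trimmed at the surface of mitochondria and in the cytoplasmic granules between them, where Tudor-domain proteins hold the PIWI proteins together with their helicases and nucleases. In male mice loss of most of these genes releases LINE1 or IAP transposons and stops spermatogenesis.

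The 6 probes of the genes with 2 probes are printed because these are the members for which a result has a second reading. Each is a 60-base oligonucleotide, written as the array files give it. Positions are those of the files, in mm9, and an interval longer than 60 bases belongs to a probe whose ends lie apart in the genome, as when it crosses an intron.
Tdrd1 brighter probe, chr19:56944400-56944459, plus strand: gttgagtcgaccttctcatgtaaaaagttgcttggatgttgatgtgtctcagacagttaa
Tdrd1 second probe, chr19:56940470-56940951, plus strand: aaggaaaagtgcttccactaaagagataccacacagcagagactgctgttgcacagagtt
Tdrd5 brighter probe, chr1:158185800-158185859, minus strand: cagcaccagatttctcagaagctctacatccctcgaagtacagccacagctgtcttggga
Tdrd5 second probe, chr1:158207541-158207600, minus strand: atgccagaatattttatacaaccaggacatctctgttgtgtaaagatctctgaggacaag
Mov10l1 brighter probe, chr15:88884717-88884776, plus strand: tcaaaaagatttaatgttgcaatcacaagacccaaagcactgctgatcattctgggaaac
Mov10l1 second probe, chr15:88816129-88818875, plus strand: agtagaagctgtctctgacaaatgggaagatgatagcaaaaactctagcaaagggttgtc

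After 12 h without FGF2 and with SU5402, 6 of the 10 members were lower than in normal culture, none was higher and 4 did not pass the test. The 6 were Tdrd1, Mov10l1, Pld6, Piwil4, Tdrd9 and Tdrd5, with mean log2 ratios of treated over control between -0.70 and -0.38. In linear terms these levels were between 1.62-fold and 1.30-fold lower. The test was limma's moderated test of the ratio against 0 with Benjamini-Hochberg adjustment over all 18454 genes, and a gene is called at an adjusted p under 0.05. Of all genes tested, 68.4% were called, 30.9% lower and 37.5% higher, so a call alone sets a gene little apart in these arrays. The median of the 10 members was -0.43 on the log2 scale, beside 0.023 for all genes. All 10 lay below that median and 7 lay below the lower quartile of all genes, which was -0.28. In cultures of mixed cells, fewer cells of a type and less RNA per cell cannot be told apart.

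**Figure D1:**
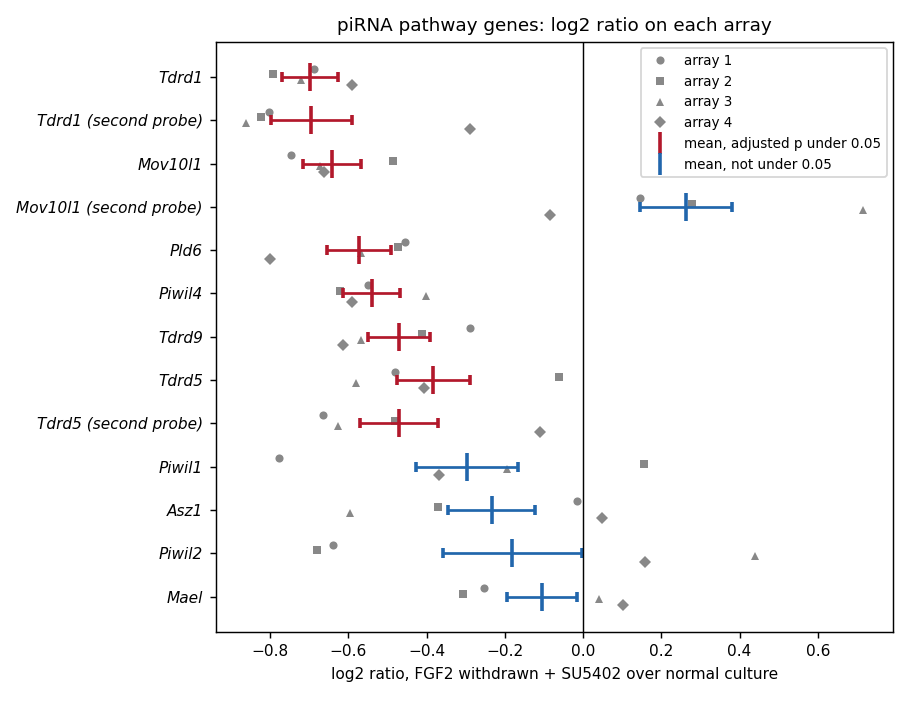
Log2 ratio of cells without FGF2 and with SU5402 over normal culture for the 13 member probes. Grey symbols are the 4 arrays, vertical ticks the means and horizontal bars the SE of the fit. Red marks an adjusted p under 0.05 over all kept probes, and the second Mov10l1 probe has the only mean above 0.

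Among the PIWI proteins, Piwil4 (MIWI2), the nuclear PIWI protein that directs transposon methylation in fetal germ cells, was lower. Its log2 intensity was 11.84, 11.86, 11.74 and 11.77 in the treated samples of arrays 1 to 4, against 12.39, 12.48, 12.14 and 12.36 in the control samples. All 4 treated samples lay below all 4 control samples. The log2 ratio was -0.54 (SE 0.070, n = 4 arrays), with an adjusted p of 0.000112 in limma's test, a level 1.45-fold lower. One further probe is described as Piwil4 but carries a transcript identifier as its gene name. It was not well above background in either channel on any array and gave no second reading.

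Piwil2 (MILI), the PIWI protein that binds the bulk of piRNAs in prospermatogonia and spermatogonia, gave the widest spread of the 10 members. The treated samples were tight at 12.46, 12.51, 12.54 and 12.64, against 13.10, 13.19, 12.10 and 12.48 in the control samples. The treated SD was 0.075 and the control SD 0.52. Arrays 1 and 2 gave ratios of -0.64 and -0.68, while arrays 3 and 4 gave 0.44 and 0.16, so the groups overlapped. The mean of -0.18 (SE 0.18) did not pass the test, with an adjusted p of 0.382.

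Piwil1 (MIWI), best known from meiotic and haploid germ cells, had treated levels of 9.00, 9.21, 9.39 and 9.33, against 9.78, 9.06, 9.58 and 9.70 in the control samples. The groups overlapped through the control sample of array 2. The log2 ratio was -0.30 (SE 0.13), with an adjusted p of 0.067. Over limma's fits on 3 arrays the ratio ran from -0.45 without array 2, which passed (adjusted p 0.0105), to -0.14 without array 1 (adjusted p 0.313). Without array 3 or array 4 it did not pass either (adjusted p 0.107 and 0.167).

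The 3 Tudor-domain members were all lower. Tdrd1, the scaffold of the granules between mitochondria that binds Piwil2, showed the largest difference of the 10 members. Its treated levels were 14.61, 14.65, 14.59 and 14.74, against 15.30, 15.44, 15.31 and 15.33 in the control samples. The treated samples all lay below the control samples, by more than the SD within either group (0.064 and 0.063). The log2 ratio was -0.70 (SE 0.069) and the adjusted p 1.79e-05. The second Tdrd1 probe gave almost the same mean, -0.69 (SE 0.10), with an adjusted p of 0.000289 in limma's fit over all 27730 kept probes, where 29.1% were called lower and 37.3% higher. Its 4 ratios were -0.80, -0.82, -0.86 and -0.29, so array 4 differed less than the others.

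Tdrd9, an RNA helicase that works with Piwil4 in silencing LINE1, had treated levels of 12.60, 12.61, 12.51 and 12.51, against 12.89, 13.02, 13.08 and 13.12 in the control samples. The groups did not overlap. The log2 ratio was -0.47 (SE 0.077) and the adjusted p 0.000506.

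Tdrd5, a granule protein that binds piRNA precursors and is needed for transposon control and for spermatid growth, had treated levels of 13.18, 13.67, 13.31 and 13.39. Its control levels were 13.67, 13.73, 13.89 and 13.79. The treated sample of array 2 reached the lowest control sample, and the ratio on that array was only -0.063. The mean ratio was -0.38 (SE 0.092), with an adjusted p of 0.00467. The second Tdrd5 probe, 21741 bases away, read -0.47 (SE 0.099) with an adjusted p of 0.00245 over probes. There array 4 gave the smallest ratio, -0.11, so the array that differed least was not the same for both probes.

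Of the members that make piRNAs from their precursors, Mov10l1 and Pld6 were lower. Mov10l1, the helicase that feeds precursor RNA into processing, had treated levels of 13.69, 13.81, 13.81 and 13.82, against 14.44, 14.30, 14.48 and 14.48 in the control samples. The groups did not overlap. The log2 ratio was -0.64 (SE 0.072), with an adjusted p of 4.19e-05.

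The second Mov10l1 probe read otherwise. It gave treated levels of 9.78, 9.75, 10.02 and 9.48, against 9.63, 9.47, 9.30 and 9.56 in the control samples. The treated sample was the higher one on 3 of the 4 arrays. Its mean ratio was 0.26 (SE 0.12) and did not pass the test, with an adjusted p of 0.0759 over probes. It was called higher under median centring (0.28, adjusted p 0.0315) and without array 4 (0.38, adjusted p 0.021), and under none of the other alternatives run on probes. The difference in ratio between the probes, second minus brighter, was 0.91 ± 0.35 (SD, n = 4 arrays) and was above 0 on all 4 arrays. An exact two-sided sign-flip permutation test gave p = 0.125, the smallest that 4 arrays allow. The probes lie 68.6 kb apart in mm9, and the second covers an interval of 2747 bases. The lower call for Mov10l1 therefore rests on its brighter probe, and the mean of both probes, -0.19, did not pass the test (adjusted p = 0.060).

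Pld6 (MitoPLD, zucchini), the phospholipase D relative on the mitochondrial outer membrane that cuts piRNA precursors, had treated levels of 11.76, 11.70, 11.70 and 11.73. Its control levels were 12.22, 12.17, 12.26 and 12.53. The treated samples were the tightest of any member (SD 0.031), and all lay below the control samples. The log2 ratio was -0.57 (SE 0.079) and the adjusted p 0.000163.

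Asz1 (GASZ), which holds the granules to mitochondria, had treated levels of 13.14, 13.19, 12.95 and 13.00, against 13.15, 13.56, 13.55 and 12.96 in the control samples. Arrays 2 and 3 gave ratios of -0.37 and -0.60, and arrays 1 and 4 gave -0.014 and 0.047. The mean of -0.23 (SE 0.11) did not pass the test (adjusted p = 0.084). Over limma's fits on 3 arrays it ran from -0.33 without array 4, which passed (adjusted p 0.0363), to -0.11 without array 3 (adjusted p 0.359). Without array 1 or array 2 it did not pass either (adjusted p 0.0584 and 0.24).

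Mael (maelstrom), which takes part in piRNA production and transposon silencing, had treated levels of 15.77, 15.71, 15.95 and 16.22, against 16.02, 16.01, 15.91 and 16.12 in the control samples. Treated was lower on arrays 1 and 2 and higher on arrays 3 and 4. The ratio was -0.10 (SE 0.088), the one closest to 0 among the members, with an adjusted p of 0.312.

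**Figure D2:**
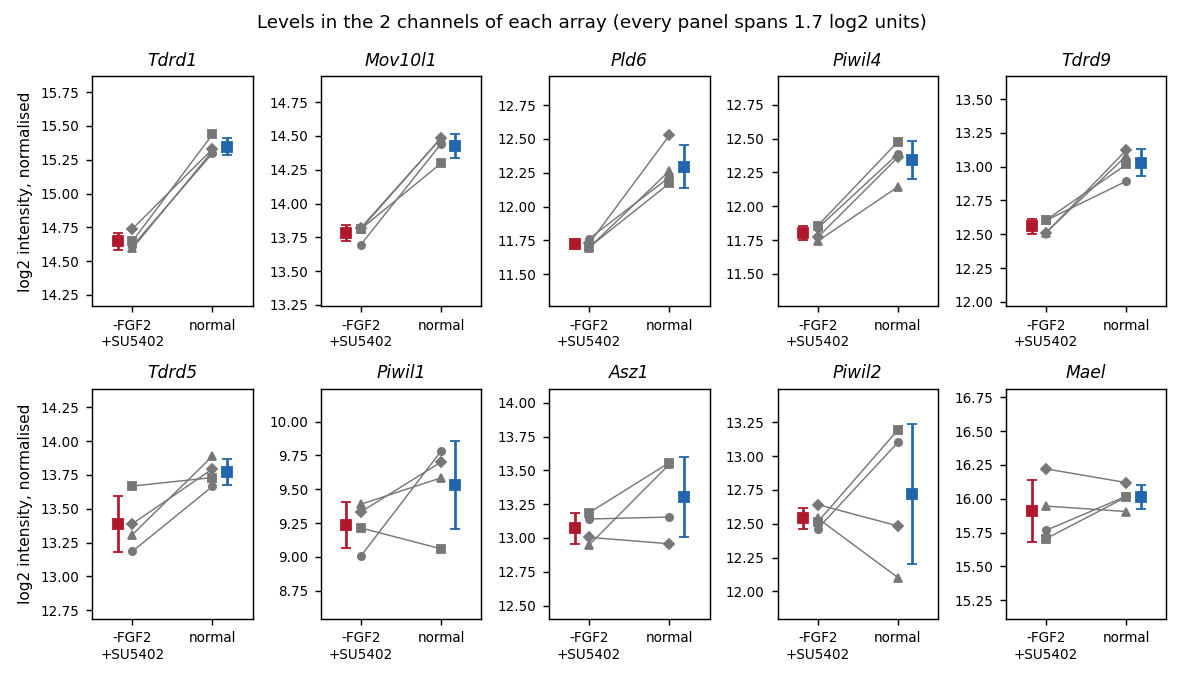
Normalised log2 intensity of each member's brighter probe, with the cells without FGF2 and with SU5402 on the left and normal culture on the right. Lines join the 2 channels of an array, and squares with bars are group means with SD. The treated samples lie below every control sample for Tdrd1, Mov10l1, Pld6, Piwil4 and Tdrd9, and the control samples of Piwil2 split into a higher and a lower pair.

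The order of the members, from the lowest ratio up, was Tdrd1, Mov10l1, Pld6, Piwil4, Tdrd9, Tdrd5, Piwil1, Asz1, Piwil2 and Mael. Each of the 9 neighbouring pairs differed by less than the SE of its own gap (at most 0.76 SE), so no neighbour in this order stood apart from the next. Tdrd1 was lower than all but 5.96% of genes tested, and Mael than all but 39.1%. The ratio was below 0 on all 4 arrays for 6 members, beside 34.4% of all genes. All 4 treated levels lay below all 4 control levels for 5 members, beside 27.1% of all genes. The median ratio of the 10 members was -0.51, -0.44, -0.57 and -0.50 on arrays 1 to 4, so no single array carried it. The control samples spread more than the treated samples in 7 of the 10 members, and in 69.0% of all genes.

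The 4 members that were not called each had ratios on both sides of 0, and only Piwil2 and Mael split on the same arrays. Array 2 was the high one for Piwil1, arrays 3 and 4 for Piwil2 and Mael, and array 4 for Asz1.

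The G+C share of the member probes was low: the median was 37.5%, against 41.7% for all kept probes, and 8 of the 10 were at or under 40%. When the trend of the ratio on the G+C share of the probe was removed within each array, all 10 members were called lower, with 41.1% of all genes called lower and 31.8% higher. With the scanner software's own log ratios 8 members were called lower, and 7854 genes were called lower against 5598 higher. The median of all genes was then -0.12 and that of the members -0.61. No alternative called a member higher by the probe or mean that stood for its gene, but the second Mov10l1 probe alone was called higher under median centring and without array 4.

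**Figure D3:**
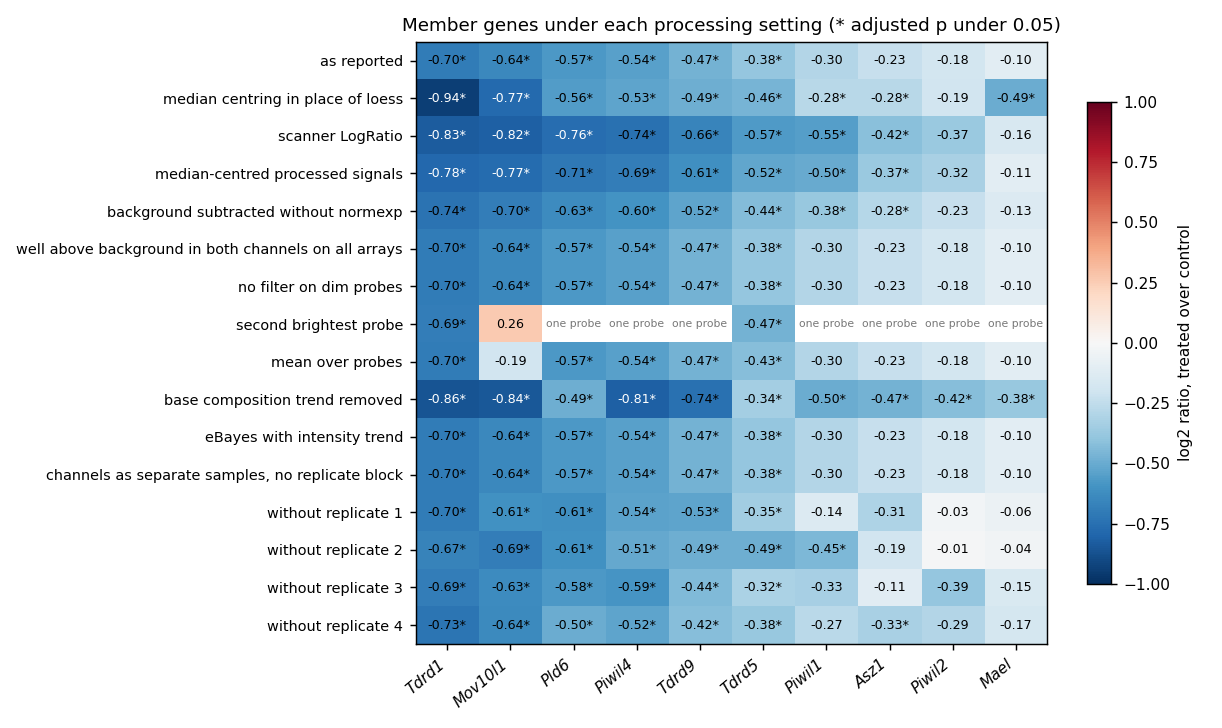
Log2 ratio of each member, treated over control, as reported (top row) and under each alternative setting, on a colour scale from blue (lower in treated cells) to red (higher). Asterisks mark an adjusted p under 0.05. Tdrd1, Pld6, Piwil4, Tdrd9 and Tdrd5 carry an asterisk in each row where they have a value, while Mov10l1 loses it where its second probe is used alone or averaged in.

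Other genes of the pathway were taken from a list of 23, of which 20 had a probe and 19 were tested. Of these 14 were lower, 1 was higher and 4 did not pass the test, beside 30.9% lower and 37.5% higher over all genes. Their median log2 ratio was -0.37, beside -0.43 for the members and 0.023 for all genes. The lowest were the chaperone gene Hsp90aa1 (-1.10, SE 0.068, adjusted p 7.29e-07 in limma's test), whose product serves many pathways besides this one, and Prmt5 (-0.76, SE 0.066, adjusted p 8.10e-06). Prmt5 is the methyltransferase that makes the methylarginine marks on PIWI proteins to which Tudor domains bind, and its partner Wdr77 was lower as well (-0.55, SE 0.092, adjusted p 0.00057). Hsp90aa1 had treated levels of 16.61, 16.50, 16.65 and 16.68, against 17.74, 17.69, 17.69 and 17.73 in the control samples, with no overlap.

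Exd1, a partner of Tdrd12 in piRNA production, read -0.61 (SE 0.069, adjusted p 4.20e-05). Fkbp6, a co-chaperone that works with Hsp90 and Tdrd proteins, read -0.59 (SE 0.068, adjusted p 5.15e-05). Tex15, which acts with Piwil4 in silencing transposons, read -0.59 (SE 0.068, adjusted p 5.32e-05). By the probe that stood for each of these 3 genes, all treated samples lay below all control samples. The second Fkbp6 probe read -0.27 (adjusted p 0.0121 over probes), and there the groups overlapped.

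Tdrkh, which joins PIWI proteins to the trimming nuclease on mitochondria, was the 1 gene of the list called higher (0.23, SE 0.090, adjusted p 0.0489). In the fit over probes this probe did not pass (adjusted p 0.0545), while the second Tdrkh probe read -0.40 and was called lower (adjusted p 0.0086). Pnldc1, Btbd18 and Spocd1 had no probe matched by name. The 2 probes of Mybl1, a transcription factor that drives pachytene piRNA genes, did not pass the filter.

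Of 7 Argonaute and microRNA processing genes, 3 were higher and 2 were lower. Over all genes 37.5% were called higher and 30.9% lower. Ago2, the Argonaute that can cut its target, was higher (1.32, SE 0.083, adjusted p 7.96e-07), and so were Ago4 (0.56, SE 0.073, adjusted p 0.000117) and Dicer1 (0.38, SE 0.10, adjusted p 0.00942), the nuclease that makes mature microRNAs. The other Ago2 probes were also called higher over probes, but read less, at 0.60, 0.27 and 0.40. Drosha, which starts microRNA processing (-0.23, SE 0.068, adjusted p 0.0127), and Ago3 (-0.27, SE 0.080, adjusted p 0.0146) were lower. Dgcr8 (-0.099, adjusted p 0.414) and Ago1 (0.11, adjusted p 0.713) did not pass. The Drosha call was lost with the processed signals (adjusted p 0.353), the second probe (0.173), the mean over probes (0.251) and base composition removed (0.0626). The Ago3 call was lost with the mean over probes (adjusted p 0.694) and without array 4 (0.0583), and the Dicer1 call with the scanner's log ratios (0.157), the processed signals (0.148) and the mean over probes (0.24). The second Dicer1 probe read -0.18 and did not pass (adjusted p 0.0625 over probes), with all treated samples below all control samples. One of the 5 Ago4 probes was called lower (-0.22, adjusted p 0.034 over probes). A second probe of Ago3 was called higher (0.26, adjusted p 0.00746 over probes) and a second probe of Ago1 as well (0.56, adjusted p 0.0015). Another Ago3 probe was called lower (-0.30, adjusted p 0.00981 over probes), and the remaining Ago3 probes, at -0.0096 and 0.17, were not called. The median over the 7 genes was 0.11, beside -0.43 for the piRNA members. That median is the value of Ago1, whose ratios ran from 1.05 on array 1 to -1.02 on array 4.

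Markers of the cells that such cultures can hold were read beside all genes, of which 30.9% were called lower and 37.5% higher. Of 11 tested markers of undifferentiated germ cells 7 were lower and none higher, with a median of -0.33. Their summed level was 189105 to 228946 in treated and 288100 to 324491 in control samples. Uchl1 (-0.66, SE 0.079, adjusted p 6.36e-05) and Dazl (-0.33, SE 0.083, adjusted p 0.00575) were among them. The summed level of the 10 piRNA members was 131848 to 156843 in treated and 175434 to 184782 in control samples. Such sums weigh the brightest probes most, Mael and Tdrd1 among the members and Uchl1 and Dazl among the germ cell markers. On arrays 1 to 4 the median of the germ cell markers was -0.43, -0.30, -0.33 and -0.26, in the same direction as that of the members on each array.

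Most markers of Sertoli cells, Leydig and peritubular cells and fibroblasts were higher, and those of leukocytes were lower. Of 7 Sertoli cell markers 6 were higher (median 2.31), with summed levels of 122848 to 132305 in treated and 15132 to 17810 in control samples. All 6 Leydig and peritubular markers were higher (median 2.17, summed 214267 to 258900 in treated and 55614 to 62279 in control samples). So were 5 of 6 fibroblast markers (median 1.39, summed 876291 to 949784 in treated and 368475 to 407818 in control samples). All 6 leukocyte markers were lower (median -1.19, summed 49990 to 62987 in treated and 119949 to 144890 in control samples). Of 4 differentiating spermatogonia markers 2 were lower and 2 higher, with sums of 57221 to 62760 in treated and 57371 to 65738 in control samples. Of 6 markers of meiotic and later germ cells 1 was lower and 2 were higher, with sums of 12709 to 13770 in treated and 8316 to 10598 in control samples. With 30.9% of all genes called lower and 37.5% higher, calls in both directions in such short lists say little. Ddx4 stands both in the germ cell list and among the other pathway genes. Zbtb16 and Sohlh1 had no probe matched by name, and Acrv1, a marker of spermatids, did not pass the filter. Each marker tested was well above background on at least 3 arrays in each channel, and the part of the cell mixture in the lower levels of the piRNA members was not tested.

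**Figure D4:**
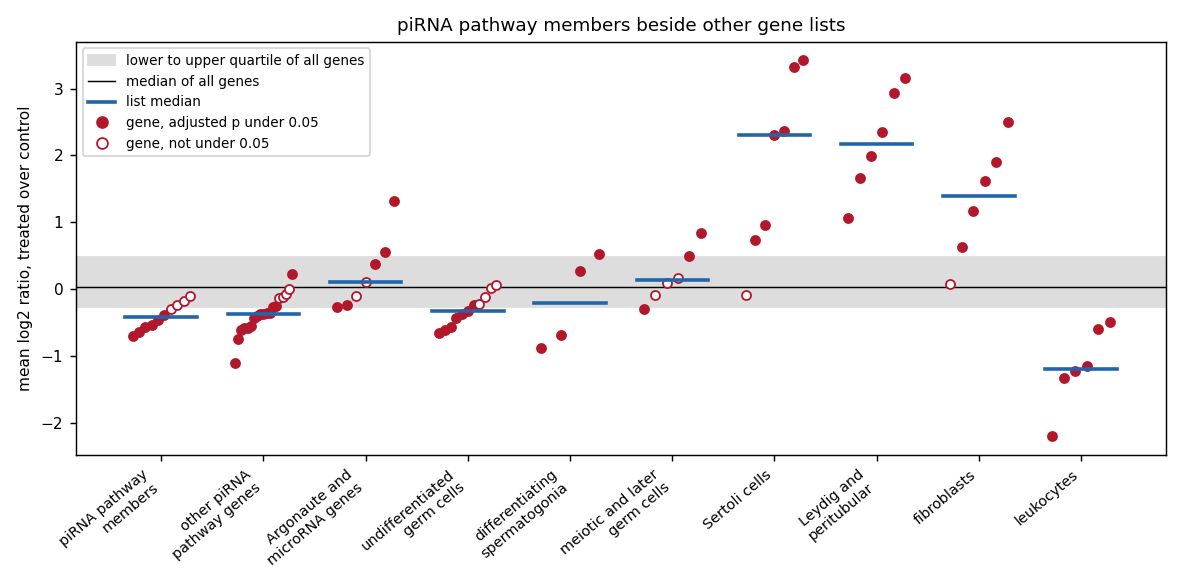
Mean log2 ratio, treated over control, for each tested gene of the piRNA members and of the other lists. Filled circles passed the test, open circles did not, blue lines are list medians, and the grey band runs from the lower to the upper quartile of all genes. The piRNA members (median -0.43) and the undifferentiated germ cell markers (median -0.33) lie at similar depths below 0, and the Sertoli, Leydig and peritubular and fibroblast markers lie mostly above the band.

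Promoters were examined for sequence that the members share. RefSeq windows of GRCm38.p6, from 250 bases before to 50 after an annotated start, were matched for 9 of the 10 members (13 windows) and not for Piwil2. They held a median of 18 CG dinucleotides, against 7 over all 32851 windows. Of 3 motifs searched on both strands, the palindromic E-box CACGTG, which itself holds a CG and is the core bound by MYC, MAX and related factors, was in 7 of the 13 member windows (53.8%). It was in 7.15% of all windows, in 10.9% of the 14281 windows with at least 10 CG dinucleotides, and in 31.8% of the 22 windows of the other pathway genes. The member windows were not filtered by CG and held 0 to 48. Counted by gene, the E-box was in 66.7% of 9 members and 33.3% of 15 other pathway genes. It was in 8.09% of all genes and 11.8% of genes with CG-rich windows. The E2F motif GCGGGAA was in 1 member window (7.69%, that of Tdrd5), against 4.60% of all windows and 9.20% of those with at least 10 CG dinucleotides. The MYB motifs TAACNG or CAACNG were in 53.8% of member windows, against 49.7% of all windows and 43.7% of the CG-rich ones.

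The E-box matches are shown with up to 20 bases on each side, because the E-box is the one of the 3 motifs whose share differed most between member windows and all windows. Sequences run in the direction of transcription with the E-box in capitals. The match of Mov10l1 lies at the edge of its window.
Tdrd1, chr19:56826178-56826223, plus strand: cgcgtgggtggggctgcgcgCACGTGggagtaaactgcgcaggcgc
Mov10l1, chr15:88982744-88982773, plus strand: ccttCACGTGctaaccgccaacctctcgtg
Pld6, chr11:59787665-59787710, minus strand: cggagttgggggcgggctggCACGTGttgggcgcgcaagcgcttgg
Tdrd9 first match, chr12:111971374-111971419, plus strand: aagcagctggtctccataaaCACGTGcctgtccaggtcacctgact
Tdrd9 second match, chr12:111971444-111971489, plus strand: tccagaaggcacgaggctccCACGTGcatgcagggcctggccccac
Piwil1 first match, chr5:128736047-128736092, plus strand: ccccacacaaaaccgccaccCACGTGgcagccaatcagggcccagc
Piwil1 second match, chr5:128736072-128736117, plus strand: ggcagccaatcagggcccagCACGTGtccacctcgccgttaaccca
Mael, chr1:166238942-166238987, minus strand: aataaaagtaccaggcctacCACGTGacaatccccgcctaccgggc

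Counted in bases from the annotated start whose window holds it, the E-box began at -33 in Pld6. From the 2 such starts of Tdrd1 it began at -11 and -77. It began at -165 and -95 in Tdrd9, at -179 and -154 in Piwil1, at -223 in Mael and at -246 in Mov10l1. A further annotated start of Pld6 and a further one of Tdrd1 had windows without a match. The 2 Tdrd1 windows with a match overlap, so the 7 windows hold the matches of 6 genes. Of those 6 genes, Tdrd1, Mov10l1, Pld6 and Tdrd9 were called lower, and Piwil1 and Mael were not. Of the 3 matched genes with no E-box in their windows, Piwil4 and Tdrd5 were called lower and Asz1 was not. A match was therefore present in members on both sides of the threshold, and it is a description of the sequence only.

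**Figure D5:**
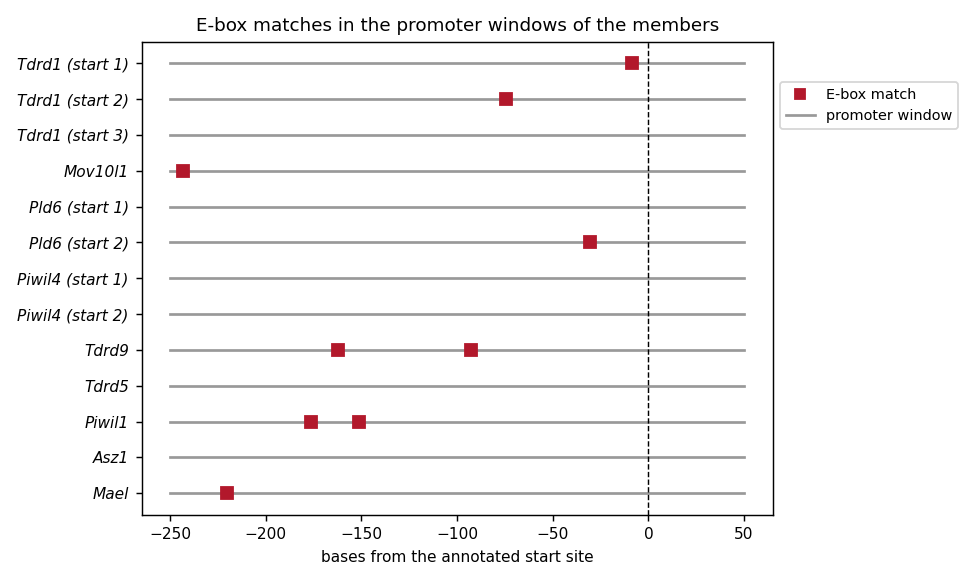
Position of CACGTG matches (red squares) in the 13 promoter windows (grey lines) of 9 members, in bases from the annotated start site, with members ordered from the lowest log2 ratio at the top. The matches of Tdrd1 and Pld6 lie closest to an annotated start, though each of these genes also has a window without a match. Piwil4, Tdrd5 and Asz1 have none.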

How the data were processed

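RNA of 4 treated and 4 control samples was measured on 4 two-colour arrays, all on 1 slide and in 1 scan per the file headers. Spot intensity values were deposited by the authors as read by the scanner software, which the submitters' processing notes and the file headers name as Agilent Feature Extraction 10.5.1.1. The processed intensity values were background-subtracted and dye-normalized by that software, per the file headers. LogRatio holds deposited log10 values of red over green. The series matrix, as deposited, holds log2 values that equalled log2 of green over red processed signal within 0.001 for 100% of 41174 probes, treated over control without centring, and its column medians were -0.26, 0.012, 0.11 and -0.058. The quality marks are other values (0 or 1) deposited per the file headers.

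Background was corrected by normexp (offset 50), and log2 ratios of green over red were normalized within arrays by loess (control spots weighted 0). Outlier marks removed 141 to 171 spots per array, and no spot was saturated. A probe was kept (27730 in all) if 1 of its channels was well above background on 3 or 4 arrays, and the brightest stood for each gene (18454). Ratios were tested against 0, two-sided, with limma 3.58.1 (lmFit, eBayes; R 4.3.3), with Benjamini-Hochberg adjustment. The ratio within an array pairs its 2 samples. Levels are log2 intensity values after loess and Aquantile, and sums are over linear levels. Between 26613 and 28496 probes were well above background in treated channels, and 25533 to 27891 in control channels. Precision is limited by the number of arrays, and ratios of a gene had a median SD of 0.15 between them. Ratios are relative to each array's trend and cannot show a change common to all genes. Nothing beyond the design text says that the replicates came from separate cultures, and p-values cover only the spread between these arrays.

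Names came from the files, updated through accessions or symbols of a RefSeq table (GRCm38.p6). Sequences are those of the array files and of RefSeq. The members and gene lists were chosen with earlier results of these data known. All members are named. Of the other pathway genes, up to 6 called genes per direction with the smallest adjusted p are named, all genes of the Argonaute list, and the 2 brightest markers of a list where values are given. The script was tested on simulated data. Alternatives covered normalization, background, the filter, the probe per gene, base composition, the variance model, channels without the replicate block, and leaving out arrays.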

Additional observations from a re-analysis of the deposited data

Results flagged for a closer look

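Of 41 probes examined, 3 had 1 array far from the other arrays relative to their whole range, and chance flags about 1 in 20. The second probe of Tdrd1 read -0.29 on array 4, against -0.80, -0.82 and -0.86 on arrays 1 to 3, while its brighter probe read -0.59 on array 4. The germ cell marker Uchl1 read -0.89 on array 2, and the Sertoli cell marker Cldn11 read 3.20 on array 4.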

How the results depend on the processing

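Under 15 alternatives Tdrd1, Pld6, Piwil4, Tdrd9 and Tdrd5 stayed below 0 and past the threshold wherever they had a value. The count of members called lower was 6 as reported, between 6 and 7 when 1 array was left out, 9 under median centring, 10 with the base composition trend removed, 5 with the mean over probes, and 2 of 3 with the second brightest probe. No member was called higher there. Mov10l1 turned to 0.26 with its second probe, which over probes was called higher under median centring (0.28) and without array 4 (0.38). With the channels as separate samples and no replicate block, 6 members were called lower, as reported. For the other pathway genes the 1 higher call became 0 under median centring, the scanner's log ratios, the processed signals, plain background subtraction, no filter, the second probe, the mean over probes, base composition and no replicate block, and was 0 to 1 when an array was left out. Tdrkh read -0.40 with the second probe, -0.086 with the mean over probes and -0.046 with base composition removed. The second probe also gave 5 lower pathway genes, 9 higher somatic markers, 3 lower leukocyte markers, and 1780 lower and 2482 higher genes, since only genes with 2 kept probes remain (6608). Median centring and the scanner's log ratios each called 1 somatic marker lower, against 0 as reported. Ago1 read -0.075 with the scanner's log ratios, -0.025 with the processed signals and -0.055 with base composition removed, and -0.20 to 0.49 without 1 array. Dgcr8 read -0.18 to 0.013 without 1 array, and the second probes of Ago3 and Dicer1 read 0.26 and -0.18. Where no construction is named, the cause was not tested. All member probes were well above background in both channels on all 4 arrays.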

Other observations

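Probes that the array files describe as ETn or L1 transposon sequence were looked up after the values of the members had been seen. Other transposons, IAP among them, were not looked up. The 2 probes described as ETn elements, both kept, read 0.31 (SE 0.070, adjusted p 0.00338 in limma's fit over probes) and 0.32 (SE 0.069, adjusted p 0.0027), and both were higher in treated cells on all 4 arrays. Of 6 probes described as L1, 2 were kept, and they read -0.13 (adjusted p 0.18) and 0.075 (adjusted p 0.381), neither of them called. Over all kept probes 37.3% were called higher, and a probe of repeated sequence can bind RNA of many copies.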
